A study of Mus musculus with 18 samples.

Results

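The carbonic anhydrase family was followed through RNA sequencing of mpkCCD, an immortalised epithelial cell line derived from mouse cortical collecting duct that resembles principal cells. The 10 members were the rows of the count table with the symbols Car2, Car3, Car4, Car5b, Car8, Car9, Car12, Car13, Car14 and Car15, out of 24111 genes. The family was chosen by earlier results for these libraries, in which the dDAVP differences of Car12 and Car15 in replicates 1-3 had been seen, so their values in that contrast are given as a description.

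Confluent monolayers were kept in medium without serum for 24 h. They were then given 0.1 nM dDAVP, or desmopressin, a synthetic vasopressin selective for the V2 receptor, for a further 24 h, or left in that medium without dDAVP as the control. There were 9 dDAVP and 9 control libraries, numbered 1 to 9 in each group and compared overall and within the sets 1-3, 4-6 and 7-9. All libraries came from a single cell line, and nothing in the labels says that equal numbers were cultured together or that replicates were separate cultures.

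Carbonic anhydrases interconvert carbon dioxide and water with bicarbonate and a proton. In the collecting duct this supplies protons for secretion by the proton pump and bicarbonate for the exchangers of the opposite membrane, mainly in intercalated cells, while principal cells reabsorb water and sodium. The members differ in where they act: Car2 and Car13 are cytosolic, Car5b is mitochondrial, Car12, Car9 and Car14 span the plasma membrane with the catalytic domain outside the cell, and Car4 and Car15 are anchored to the outer face of the membrane by a lipid. Car3 is a cytosolic form abundant in muscle, and Car8 is a related protein that lacks the enzymatic activity.

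Car12 and Car15 are the members whose dDAVP difference is described at length, and their promoter windows are shown for that reason. Each runs from 250 bases before to 50 bases after the start of the gene in RefSeq, on the strand of the gene (RefSeq, GRCm38.p6; Car12 chr9:66713436-66713735, plus strand; Car15 chr16:17838137-17838436, minus strand). Gene positions given further below come from another GRCm38 annotation, in which Car12 has the same start and Car15 starts upstream, so that the Car15 start used here lies inside that gene. Capitals mark the half-site TGACG of the cAMP response element, the sequence bound by factors downstream of the V2 receptor.
Car12: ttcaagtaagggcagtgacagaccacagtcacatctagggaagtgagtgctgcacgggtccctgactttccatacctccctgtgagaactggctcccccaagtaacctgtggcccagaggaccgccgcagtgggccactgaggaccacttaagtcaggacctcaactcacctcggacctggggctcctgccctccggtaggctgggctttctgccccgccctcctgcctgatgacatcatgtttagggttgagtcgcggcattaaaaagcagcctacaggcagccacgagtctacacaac
Car15: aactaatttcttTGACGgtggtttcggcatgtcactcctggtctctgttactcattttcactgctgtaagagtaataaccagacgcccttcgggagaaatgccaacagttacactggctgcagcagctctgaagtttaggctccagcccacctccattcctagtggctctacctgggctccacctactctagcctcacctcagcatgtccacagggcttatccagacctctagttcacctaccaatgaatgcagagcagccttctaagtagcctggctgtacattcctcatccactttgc
The half-site was searched on both strands. It was present in Car15, beginning at base 13 of the window, and in none of the other 5 members with a RefSeq window (Car4, Car5b, Car9, Car12 and Car14). It lies in 20.8% of the 32851 mouse promoter windows, and the full element TGACGTCA, which contains it, lies in 1.79% of them and in 0 of the 6 members' windows. A match is a description of these letters only.

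Libraries held between 22.2 and 105.9 M counted reads. Levels are normalised CPM, counts divided by the library total in M after scaling that total by edgeR's TMM factor, which spanned 0.306 to 3.16. A floor of 3 counts equalled 0.0142 to 0.359 normalised CPM and covers counting error only. Aqp2, the water channel that vasopressin induces, ran from 162 to 2756 CPM in the dDAVP libraries and from 10.8 to 251.2 CPM in the control libraries. In 1-3 it ran from 1050 to 2636 CPM with dDAVP and from 20.5 to 27.9 CPM in controls. In 4-6 these ranges were 162 to 1097 CPM and 27.3 to 48.2 CPM. In 7-9 the groups overlapped, since control 9 at 251.2 CPM was above dDAVP 8 at 174.0 CPM and dDAVP 9 at 191.9 CPM. Libraries 1-3 resembled each other (r 0.95 to 0.99 across genes), dDAVP 6 stood apart in its set, and libraries 7-9 divided across the labels: control 8 was closest to dDAVP 7. The 4 epithelial markers were abundant as a sum in every library, but at different levels between sets. In control libraries they summed to 11275.5 to 16532 CPM in 1-3, 1002 to 1612 CPM in 4-6 and 3640 to 8483 CPM in 7-9. The 3 endothelial markers were at 0 in all 18 libraries. Among the markers that define intercalated cells, Foxi1, Slc4a1, Slc26a4 and Atp6v1g3 were each below 1 CPM in every library. Other markers on the intercalated cell list were higher. Rhcg ran from 9.07 to 48.99 CPM over the libraries. In dDAVP 7, Hmx2 stood at 63.46 CPM and Atp6v1b1 at 19.33 CPM. The summed level of the list reached 135.3 CPM in dDAVP libraries and 77.74 CPM in control libraries.

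Of the 10 members, 5 were detected in most libraries, and Car2 was the leading transcript. On the FPKM scale, which divides by gene length and so allows genes to be compared, Car2 was highest of the family in 15 of 18 libraries. Its FPKM level averaged 13.8 ± 10.7 in dDAVP libraries and 9.71 ± 7.14 in control libraries (SD, n = 9 each). Car15 was highest in the other 3, all in the set 7-9, of which 2 were dDAVP and 1 was control. The summed FPKM of the members averaged 22.1 ± 16.0 in dDAVP libraries and 13.1 ± 8.27 in control libraries (SD, n = 9 each). The groups overlapped widely.

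**Figure D1:**
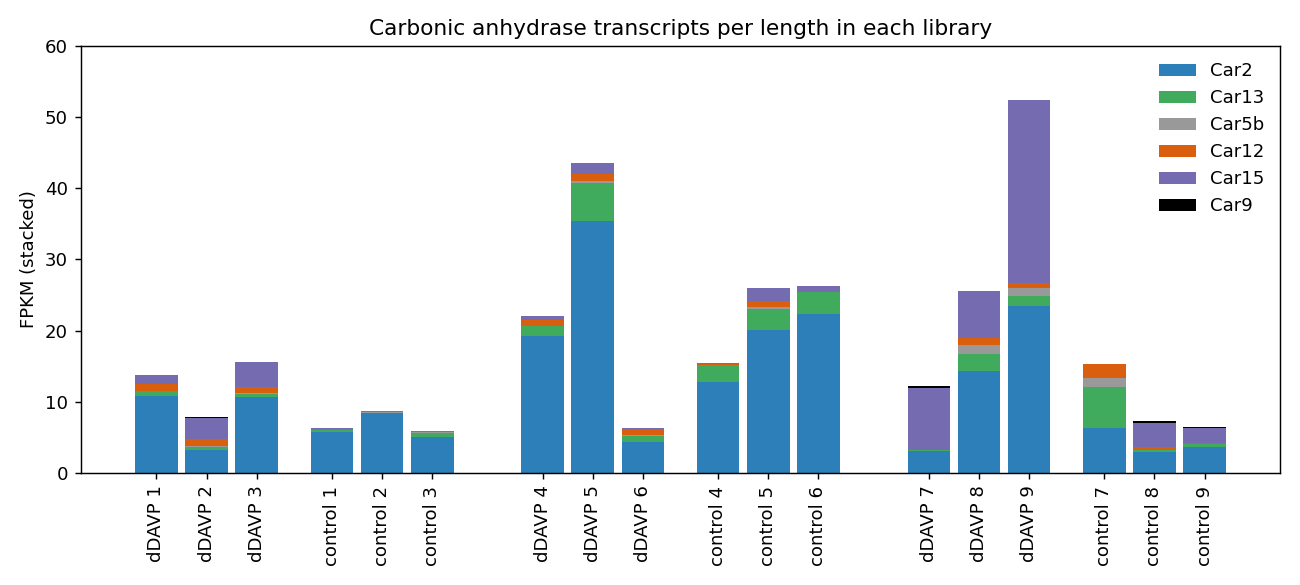
Stacked FPKM of 6 members (y axis) in each of the 18 libraries (x axis), by set of replicate numbers with dDAVP libraries left of control libraries. Car2 is the largest segment in 15 libraries, and Car15 is larger in 3 libraries of the set 7-9.

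The mixture of family transcripts differed between the groups in libraries 1-3. Car15 was the second most abundant member in 3 of 3 dDAVP libraries and in 0 of 3 control libraries of that set. Its share of the family's FPKM had a median of 22.6% (8.62 to 38.0%) in dDAVP 1-3 and of 1.66% (0 to 1.82%) in control 1-3. The share of Car12 had a median of 7.25% in dDAVP 1-3 and 1.59% in control 1-3. The share of Car2 had a median of 68.3% in dDAVP 1-3 and 92.2% in control 1-3. The FPKM level of Car2 overlapped between the groups. Car12 and Car15 were chosen by this set, so these shares are a description. In 4-6 the median shares, dDAVP against control, were 2.43% and 3.11% for Car15 and 81.2% and 82.7% for Car2. For Car12 they were 3.91% and 0.82%. In 7-9 they were 49.2% and 32.7% for Car15 and 44.8% and 41.4% for Car2, and the median share of Car12 was lower in dDAVP libraries.

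Car2, the widespread cytosolic enzyme (chr3:14886273-14900770 in GRCm38, plus strand), had its highest mean in the set 4-6 in both groups. Which set was lowest depended on the scale: in dDAVP libraries the mean in 7-9 was below that in 1-3 on normalised CPM (9.19 against 18.7 CPM) and above it on FPKM (13.6 against 8.23 FPKM). In dDAVP 1-3 it stood at 19.6, 9.01 and 27.3 CPM, against 15.0, 18.5 and 11.4 CPM in control 1-3. In dDAVP 4-6 it stood at 52.4, 64.5 and 25.1 CPM, against 41.7, 29.4 and 43.1 CPM in control 4-6. In dDAVP 7-9 it stood at 4.24, 8.10 and 15.2 CPM, against 4.81, 4.00 and 5.66 CPM in control 7-9. The groups overlapped in every set, with the highest dDAVP value above the highest control value each time. The log2 fold change, dDAVP over control, was 0.24 (SE 0.38) in 1-3, 0.26 (SE 0.47) in 4-6 and 0.86 (SE 0.79) in 7-9, and edgeR's quasi-likelihood test called it in none of them.

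Car13, the other cytosolic member detected (chr3:14641727-14663002, plus strand), had a lower FPKM level than Car2 in 18 of 18 libraries and was likewise highest in the set 4-6. In dDAVP 1-3 it was at 1.65, 1.27 and 1.52 CPM, against 0.86, 0.26 and 1.44 CPM in control 1-3. In dDAVP 4-6 it was at 5.06, 12.4 and 6.94 CPM, against 10.3, 5.36 and 7.63 CPM in control 4-6. In dDAVP 7-9 it was at 0.19, 1.71 and 1.11 CPM, against 5.77, 0.41 and 0.79 CPM in control 7-9. Groups overlapped in all sets, and control 7 was far above the other control libraries of its set. The log2 fold changes were 0.74 (SE 0.49), 0.04 (SE 0.67) and -1.26 (SE 1.32) in the sets 1-3, 4-6 and 7-9, none of them called by edgeR. Without control 7 the value of Car13 in 7-9 was 0.94.

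Car5b, the mitochondrial member (chrX:163976822-164027997, minus strand), was detected at low level in 8 of 9 dDAVP and 7 of 9 control libraries. It averaged 0.799 ± 0.679 CPM in dDAVP and 0.438 ± 0.611 CPM in control libraries (SD, n = 9 each). The ranges overlapped, at 0 to 1.79 CPM in dDAVP and 0 to 1.81 CPM in control libraries. It passed the filter on low counts in the sets 4-6 and 7-9 but not in 1-3. In those sets edgeR gave log2 fold changes of 1.23 (SE 2.01) and 0.45 (SE 1.56), neither called. Leaving out 1 library moved the Car5b value between 0.41 and 7.57 in 4-6, the highest without control 5, and between -0.06 and 3.25 in 7-9, the highest without control 7, so no direction or size is read from it.

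Car12 (chr9:66713686-66766845, plus strand), the transmembrane enzyme whose promoter window is shown above, was higher with dDAVP in libraries 1-3. In dDAVP 1-3 it had 3.75, 5.98 and 4.68 CPM, from 82, 99 and 83 counts, against 0.43, 0.63 and 0.63 CPM in control 1-3, from 7, 12 and 14 counts. Every dDAVP library of this set was above every control library, as for 7.11% of the 10121 genes kept in the fit of all libraries. The fitted log2 fold change was 2.99 (SE 0.36).

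The same gene held its dDAVP level in libraries 4-6. It had 4.88, 3.69 and 9.81 CPM in dDAVP 4-6, against 0.86, 2.54 and 0.35 CPM in control 4-6. Groups did not overlap in this set, as for 5.27% of genes, nor over libraries 1-6, as for 0.138% of genes. The second arrangement includes the libraries 1-3 by which Car12 was chosen, so nothing is read from its share. On CPM of the unscaled library total the Car12 groups did overlap in 4-6, since control 5 had 3.10 CPM and dDAVP 6 had 3.00 CPM; on that scale 1.48% of genes did not overlap in 4-6 and 0.0593% over 1-6, again without a reading for Car12. The 6 dDAVP libraries of 1-6 then lay close together, between 3.00 and 3.87 CPM, and 5 of the 6 control libraries lay between 0.294 and 0.513 CPM. The log2 fold change in 4-6 was 2.18 (SE 1.05) and was not called.

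In libraries 7-9 the order of the groups was not kept. Car12 had 0.09, 1.12 and 0.92 CPM in dDAVP 7-9, against 3.25, 1.10 and 0.29 CPM in control 7-9. On CPM of the unscaled library total, dDAVP 7-9 had 0.11, 3.53 and 2.53 CPM. Control 7-9 had 7.55, 1.48 and 0.34 CPM on that scale. The groups overlapped on both scales. The highest value belonged to control 7 and the lowest to dDAVP 7. The log2 fold change was -1.17 (SE 1.38), which differed from that in 1-3 by -4.16 (SE 1.42). The direction in 7-9 rested on control 7, without which the log2 fold change of Car12 was 0.20. edgeR's test of the interaction of set and treatment called 0 of the 5 members tested and 0% of 11710 genes, of which 819 had an unadjusted p under 0.05, Car12 among them. DESeq2 called 84 genes and limma voom with quality weights 568 in that comparison, and neither called a member.

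Car15 (chr16:17835276-17838364, minus strand), the lipid-anchored enzyme, had the largest fold change of the family in libraries 1-3. It had 1.33, 5.08 and 5.58 CPM in dDAVP 1-3, from 29, 84 and 99 counts, against 0.18, 0 and 0.14 CPM in control 1-3, from 3, 0 and 3 counts. All 3 control libraries were at or under the floor of 3 counts and all dDAVP libraries were above it. The groups did not overlap, as for 7.11% of genes on normalised CPM and 10.3% on CPM of the library total. The log2 fold change was 5.06 (SE 0.71), a value that depends on the prior count because the control counts are so few. Reads of Car15 may also belong to the predicted gene Gm20518. In the annotation used here for positions it lies on the same strand and shares 1253 of the 1906 exon bases of Car15. The deposited counts and FPKM imply a length of 1105 bases for Car15. The gene model used for them therefore differed, and the overlap may not hold for it. How the counting treated such reads is not given in the sources used here.

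In the other sets the Car15 difference varied. In dDAVP 4-6 it had 0.90, 1.78 and 0.36 CPM, against 0.20, 1.64 and 0.98 CPM in control 4-6, and the groups overlapped fully (log2 fold change -0.02, SE 1.33). In dDAVP 7-9 it had 7.39, 2.34 and 10.3 CPM, against 0, 2.75 and 2.01 CPM in control 7-9, and only dDAVP 8 and control 8 were out of order (log2 fold change 2.03, SE 1.38). On CPM of the library total the groups of 7-9 did not overlap, as for 8.17% of genes, against 4.58% on normalised CPM. The log2 fold change of Car15 in 4-6 differed from that in 1-3 by -5.09 (SE 1.95), which edgeR did not call.

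**Figure D2:**
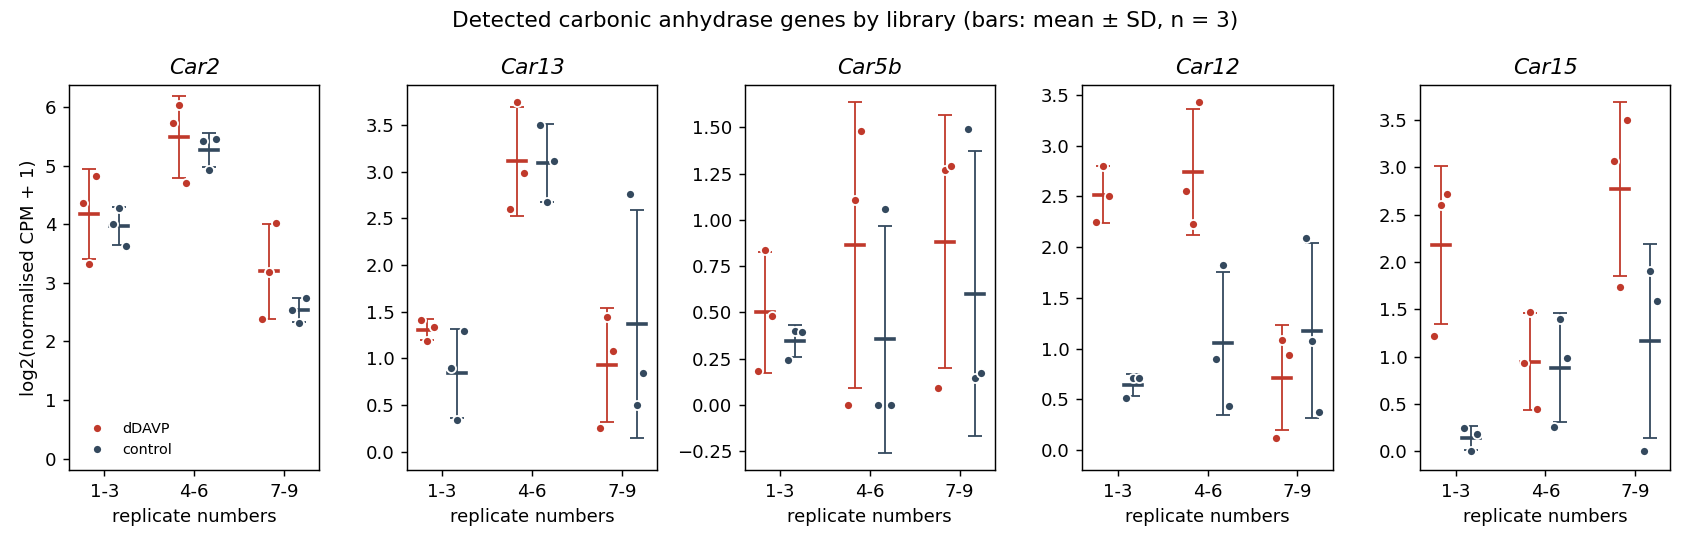
log2(normalised CPM + 1) of the 5 detected members (y axis) for dDAVP and control libraries in each set of replicate numbers (x axis), 1 point per library with the mean and SD of 3. Car12 and Car15 are apart in 1-3, Car12 is also apart in 4-6, and Car2 and Car13 are highest in 4-6 in both groups.

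The remaining members gave few or no reads. Car9, a transmembrane enzyme induced by low oxygen, had 2 counts in dDAVP 2 and 44 in dDAVP 7, against 33 in control 8 and 16 in control 9, and 0 elsewhere. Car8 had 1 count in each of dDAVP 2 and dDAVP 3, and Car14 had 1 count in dDAVP 9. Car3 and Car4 had 0 counts in all 18 libraries. None of these 5 was tested except Car9 in the set 7-9, where it was not called. Of the 6 other carbonic anhydrase genes in the table, Car1, Car6 and Car10 had 0 counts throughout. Car11, a family member without enzymatic activity, averaged 1.01 ± 1.35 CPM in dDAVP and 0.733 ± 0.848 CPM in control libraries (SD, n = 9 each).

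Read from fits over all genes with a Benjamini-Hochberg adjusted p under 0.05, the members called were 2 of 4 tested in libraries 1-3, Car12 and Car15, both higher with dDAVP. That fit called 0.456% of 8991 genes, and nothing is read from the count because these calls chose the members. With each control library of 1-3 left out in turn, Car15 was no longer called and Car12 was. In 4-6 edgeR called 0 of 5 members and 0% of 10387 genes, and in 7-9 0 of 6 members and 0% of 11367 genes. No member had an unadjusted p under 0.05 in either set, where 479 and 590 genes did, and DESeq2 and limma voom with quality weights called no member. DESeq2 called 29 genes in 4-6 and 94 in 7-9, and the voom fit 2 and 220.

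The fits over all 18 libraries contain the libraries 1-3 by which Car12 and Car15 were chosen, so their estimates and calls there are a description. Without covariates Car12 had a log2 fold change of 1.77 (SE 0.69), Car15 of 2.13 (SE 0.93), Car2 of 0.38 (SE 0.58) and Car13 of -0.04 (SE 0.77). edgeR called 0 of these 4 members and 0% of 10121 genes (218 genes had an unadjusted p under 0.05, Car12 and Car15 among them); DESeq2 called 12 genes and no member, and limma voom with quality weights called Car15 along with 0.109% of genes. With the set as a term, edgeR gave 1.51 (SE 0.77) for Car12 and 2.26 (SE 0.93) for Car15 and called 0 of 4 members and 0.079% of genes, and DESeq2 called no member. The quality-weighted voom fit called both, along with 1.17% of genes. Without libraries 7-9, edgeR's log2 fold change with the set term was 2.68 (SE 0.54) for Car12 and 2.34 (SE 1.11) for Car15, and neither was called.

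**Figure D3:**
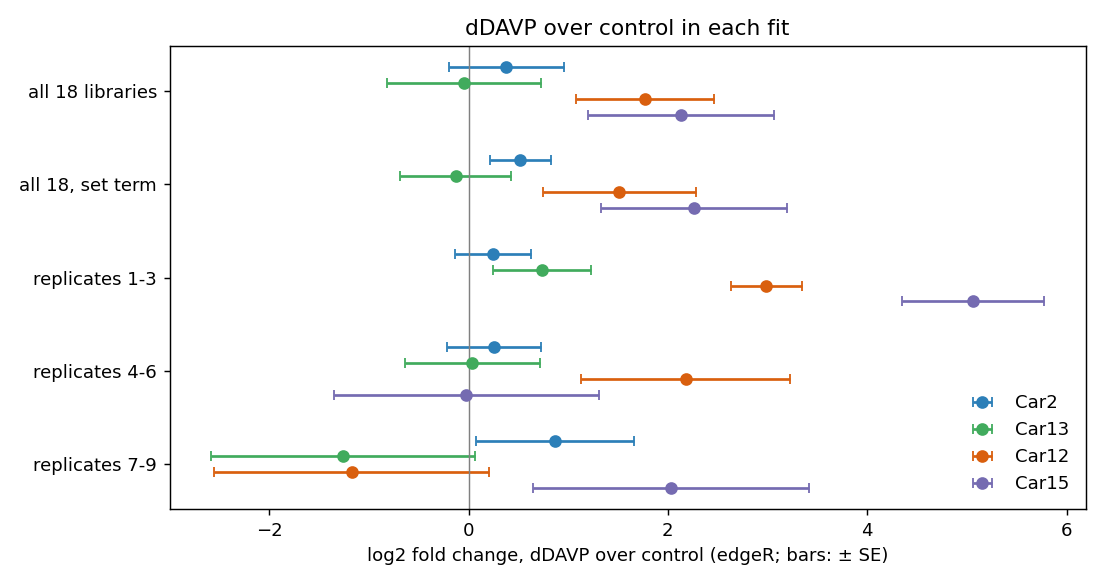
log2 fold change of dDAVP over control (x axis) from edgeR, with bars of ± 1 SE, for 4 members in each fit (y axis). Car12 and Car15 lie far above 0 in replicates 1-3, and Car12 is below 0 in replicates 7-9 with a bar that spans 0.

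Libraries 4-9 took no part in the calls of 1-3, and Car12 and Car15 were tested there. Earlier results of these data were known when the members were chosen, so libraries 4-9 are not taken as unseen. With the set as a term, edgeR gave Car12 a log2 fold change of 0.56 (SE 1.06, adjusted p = 0.991) and Car15 one of 1.11 (SE 1.05, adjusted p = 0.986). It called 0 of 5 members and 0% of 10761 genes in these libraries, although 484 genes and no member had an unadjusted p under 0.05, and neither DESeq2, with 9 genes called, nor limma voom with quality weights, with 5, called a member. By a two-sided exact permutation within the sets, Car12 was higher in dDAVP libraries by 0.61 in mean log2(CPM + 1) (p = 0.26, adjusted over the 2 genes 0.26). Car15 was higher by 0.83 (exact p = 0.125, adjusted 0.25). The smallest p these 400 regroupings allow is 0.005. Without dDAVP 6 the differences of the pooled group means were 0.27 for Car12 (exact permutation p = 0.585, adjusted 0.585) and 1.12 for Car15 (exact permutation p = 0.055, adjusted 0.11). The groups then drew unequally on the sets. These differences therefore also carry the levels of the sets, and no size of a dDAVP difference is read from them.

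Comparisons between the untreated sets use no dDAVP library and were tested for every member kept. Car2 was lower in control 7-9 than in control 4-6, with no overlap (18.9% of genes), and edgeR called it (log2 fold change -2.92, SE 0.50, adjusted p = 0.000649). Against control 1-3 it was again lower in control 7-9 without overlap, as for 28.1% of genes (-1.84, SE 0.48, edgeR adjusted p = 0.00591). Car13 was higher in control 4-6 than in control 1-3, with no overlap (37.5% of genes) and an edgeR log2 fold change of 2.92 (SE 0.99, adjusted p = 0.0318).

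These calls stand among very many others. Of 11005 genes, edgeR called 30.3% between control 7-9 and control 4-6, 49% between control 7-9 and control 1-3, and 37.5% between control 4-6 and control 1-3, with 1 of 4 members tested called in each. The median log2 fold change of all genes in these 3 comparisons was 0.30, 0.43 and 0.41, and with library totals alone 1.13, 1.70 and 0.85, so the direction of a gene is relative to that shift. With library totals alone the Car2 difference between control 7-9 and control 1-3 was -0.58 and was no longer called (edgeR adjusted p = 0.429). Car15 had 3.69 (SE 1.75) in that comparison, not called by edgeR (adjusted p = 0.0937) but called by DESeq2. The Car13 call was lost without control 1, 2, 3, 4 or 6 (edgeR adjusted p 0.055 to 0.13).

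Genes with the most similar pattern were sought for the 4 members with a mean of at least 1 CPM, by Pearson r of log2(CPM + 1) after removal of set means over the 18 libraries, among 9305 genes. These libraries hold both treatments and come from 1 cell line, so r is a description. Car12 was nearest to Spink8, a Kazal-type peptidase inhibitor (r = 0.90), Crem, a cAMP-responsive modulator of transcription (r = 0.85), and Rasgef1b, a guanine nucleotide exchange factor (r = 0.84). Spink8 had 67.0, 73.4 and 113 CPM in dDAVP 1-3, against 2.20, 3.58 and 4.86 CPM in control 1-3. Crem had 5.33, 5.97 and 13.04 CPM in dDAVP 4-6, against 0.80, 1.01 and 2.69 CPM in control 4-6. In the set 7-9 both were highest in control 7, as Car12 was.

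Car15 was nearest to Aqp6, a water channel of intracellular vesicles in intercalated cells (r = 0.88), B3gnt7, a glycosyltransferase (r = 0.84), and Nop2, a nucleolar RNA methyltransferase (r = 0.82). B3gnt7 had 28.0, 34.6 and 41.2 CPM in dDAVP 1-3, against 1.04, 1.37 and 1.17 CPM in control 1-3. With Aqp2, r was 0.75 for Car15 and 0.41 for Car12, and between Car12 and Car15 it was 0.20. Car2 was nearest to Alg14 (r = 0.83), Pgap2 (r = 0.83) and Lgmn (r = 0.80), and Car13 to Paip2b (r = 0.83), Adi1 (r = 0.80) and Ppp1r1b (r = 0.79). The 4 members thus shared none of the genes nearest to them.

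**Figure D4:**
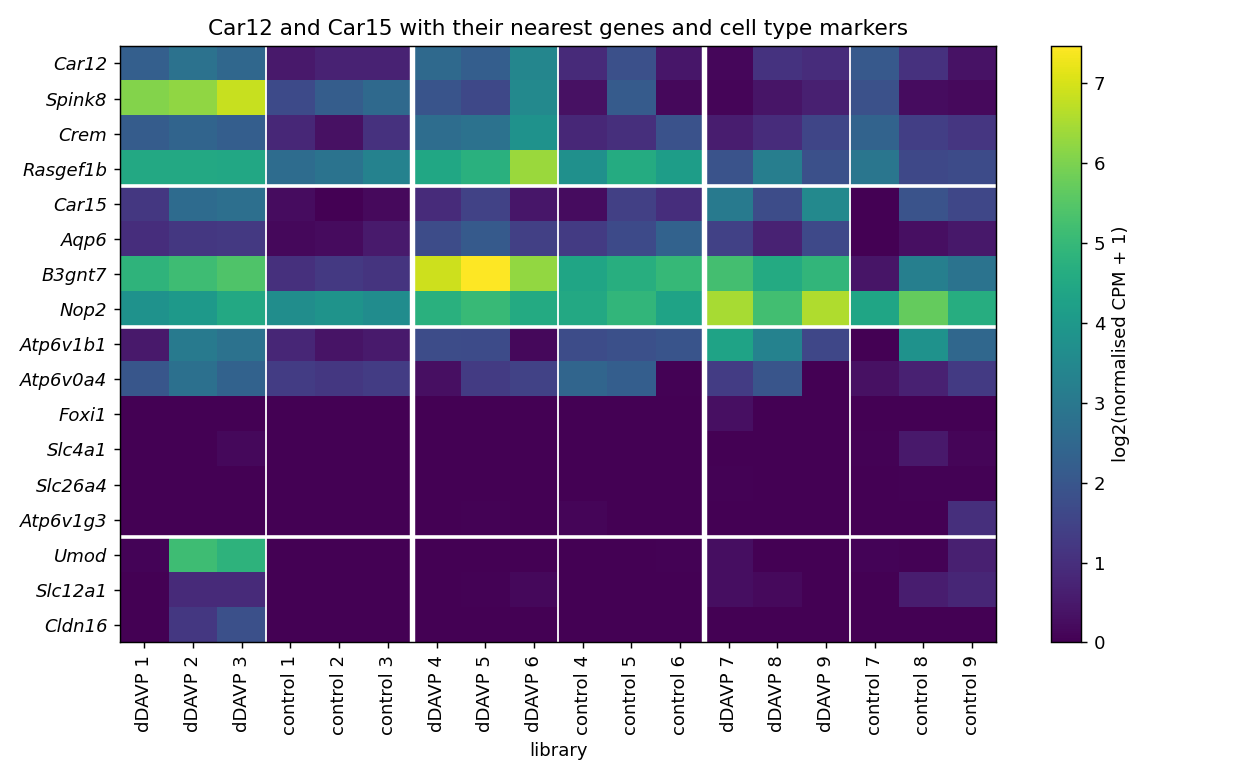
log2(normalised CPM + 1) (colour) of Car12 and Car15, their 3 nearest genes each, and markers of intercalated cells and the thick limb (rows) in the 18 libraries (columns), dDAVP left of control in each set. Foxi1, Slc4a1, Slc26a4 and Atp6v1g3 are below 1 CPM throughout, the highest being Atp6v1g3 at 0.997 CPM in control 9. Umod stands at 34.2 CPM in dDAVP 2 and 27.2 CPM in dDAVP 3.

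Some markers of other tubule cells were high in the libraries where Car15 was highest within 1-3, although none was called: the 3 thick limb markers did not pass the filter there. Umod, the secreted protein that defines the thick ascending limb, had 0.05, 34.2 and 27.2 CPM in dDAVP 1-3, against 0 CPM in each of control 1-3. The summed level of the 3 thick limb markers (Umod, Slc12a1 and Cldn16) ran from 0.05 to 36.4 CPM in dDAVP 1-3 and was 0 in control 1-3. Most of that sum was Umod. Slc12a1 had 0.85 CPM in each of dDAVP 2 and dDAVP 3, and Cldn16 had 1.33 and 2.54 CPM there. The list of 7 proximal tubule markers went the other way. It summed to 2.82 to 5.26 CPM in dDAVP 1-3 and 6.48 to 8.43 CPM in control 1-3. Atp6v1b1, a proton pump subunit of intercalated cells, had 0.41, 7.25 and 6.03 CPM in dDAVP 1-3, against 0.73, 0.32 and 0.45 CPM in control 1-3. dDAVP 2 and dDAVP 3, the libraries high in Umod and Atp6v1b1, were also those highest in Car15. In dDAVP 1 both markers were at or near their control levels. Their part in the Car15 result was not tested.

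The 10 intercalated cell markers summed to 29.6 to 50.3 CPM in dDAVP 1-3 and 23.7 to 43.7 CPM in control 1-3. In 1-3, 4 of the 10 were tested, all 4 with a positive log2 fold change and none called by edgeR: Atp6v1b1 at 3.06 (SE 0.77, adjusted p = 0.161), Aqp6 at 2.16 (SE 0.50, adjusted p = 0.114), Atp6v0a4 at 1.46 (SE 0.33, adjusted p = 0.107) and Rhcg at 0.09 (SE 0.28). The 4 markers that define these cells had at most 0.11 CPM in any library of the set, in dDAVP 3 for Slc4a1. Where bulk RNA differs, fewer cells of a type and less RNA per cell cannot be told apart.

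The partners of carbonic anhydrase in acid and base transport were measured beside the family. In libraries 1-3 edgeR called none of the 5 tested of 18 genes on the bicarbonate transporter list (3 with a positive and 2 with a negative log2 fold change). Bicarbonate transport itself was not measured for the genes of that list, Slc4a11 among them. edgeR also called none of the 6 tested of 13 genes of sodium-proton exchange (4 and 2) and none of the 18 tested of 21 proton pump subunits (10 and 8). Of all genes in that fit, 49.4% were positive. Slc4a2, the basolateral chloride-bicarbonate exchanger, had 49.1, 80.7 and 84.98 CPM in dDAVP 1-3, against 43.7, 40.3 and 64.0 CPM in control 1-3, which overlapped (log2 fold change 0.46, SE 0.26). Slc4a11, of the same family, had 3.52, 4.53 and 5.92 CPM in dDAVP 1-3, against 2.75, 2.21 and 2.79 CPM in control 1-3. Its groups did not overlap, as for 7.11% of genes (log2 fold change 0.77, SE 0.30, edgeR adjusted p = 0.42).

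In libraries 4-6, 7-9 and 4-9 edgeR likewise called no gene of these 3 lists, where it called 0% of all genes. Of 16 genes of the response to low oxygen, the setting in which Car9 is induced, 13 were tested in 1-3 and none was called, where 0.456% of all genes were. Over all 18 libraries without covariates 8 of the 16 were positive and 8 negative, and none was called, where 0% of all genes were. Against these shares a count of 0 is not a result about the list.

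Between untreated sets some of the same partners were called, among very many other genes. In control 4-6 against control 1-3 edgeR called 37.5% of all genes. Of the 18 proton pump subunits tested it called 10 lower and none higher. Of 7 genes tested on the bicarbonate transporter list it called 1, Slc4a11, higher (log2 fold change 1.95, SE 0.72, adjusted p = 0.045). Of 7 genes of sodium-proton exchange it called 2 higher. In control 7-9 against control 1-3 edgeR called 49% of all genes. It called 11 of the 18 subunits lower and 2 higher. From the bicarbonate list it called Slc4a3, Slc4a5 and Slc4a11 higher, 3 of 7 tested. Of 7 genes of sodium-proton exchange it called 4 higher and 1 lower. The share called was below that of all genes for the bicarbonate list in both comparisons. No count is read as a result about its list.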

How the data were processed

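Reads had been processed against build mm10 using HTSeq, SAMtools and STAR 2.4.0.1, according to the tools named per the submitters' processing notes. The deposited FPKM values are labelled RefSeq, but the annotation release and strand setting are not given in the sources used here. The labels' protocols describe both a low-input kit and a single-cell style protocol from 20 ng of RNA, without saying which library had which. The authors deposited raw counts per gene and FPKM values; all columns were matched to a sample.

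The members and gene lists were chosen with earlier results of these data known. Counts were fitted with edgeR 4.0.16 (R 4.3.3) by quasi-likelihood, TMM, filterByExpr and a two-sided Benjamini-Hochberg adjusted p under 0.05. The standard error is the size of the log2 fold change over the root of F. The fits were checked on simulated data. Other settings were RLE factors, library totals, other filters, DESeq2 1.42.0, limma 3.58.1 (voom with quality weights, and FPKM plus 1 or 0.1), a replicate block and leaving out each library. Leaving out libraries 7-9 together was added after seeing the data.

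Named genes were all members, the other carbonic anhydrase genes by count, up to 3 called genes per list (else the 2 highest) and the 3 most similar genes per member; the text gives part of these. Umod, Atp6v1b1, Atp6v0a4 and Aqp6, and the sets shown for the similar genes, were picked after their values were seen. Deviations from group means correlated at r 0.40 to 0.93 between equal replicate numbers and, after removal of set means, at -0.71 to 0.43, so that the correlation came with the sets. No libraries were duplicates, the lowest chi-square per degree of freedom within a group and set being 67.4. Positions are from GRCm38 annotation. P-values measure spread between libraries, which may be technical.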

Additional observations from a re-analysis of the deposited data

Results flagged for a closer look

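Car9 had 1 dDAVP library far from the other 8: dDAVP 7 stood at 0.318 normalised CPM and the next highest, dDAVP 2, at 0.121 normalised CPM. Car14 stood at 0.00498 normalised CPM in dDAVP 9, which is 1 count, and at 0 in the other 8 dDAVP libraries. Both groups are mostly at 0, so 1 library with a few counts is enough to stand apart.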

How the results depend on the processing

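The dDAVP calls in libraries 4-6, 7-9 and 4-9 and the interaction stayed at 0 members under every setting run. With quality-weighted voom, 1 member was called over all libraries without covariates and 2 with the set term. In 1-3 the count ran from 1 to 2 as each library was left out. Between untreated sets, 2 members were called in control 4-6 against control 1-3 with quality-weighted voom, and 0 to 2 as each library was left out. In control 7-9 against control 1-3, 2 were called with library totals alone, 2 with DESeq2 and 1 to 2 as each library was left out; in control 7-9 against control 4-6, 1 to 2. Without control 7 the second calls in these were Car15 and Car13. The replicate block left the number of members called unchanged in every dDAVP comparison (2 in libraries 1-3, 0 elsewhere), while all genes called were 101 in 1-3 and 1 over all libraries with the block in place of the set term. Among dDAVP comparisons, leaving out each library moved uncalled log2 fold changes across 0: Car12 in 7-9 between -1.75 and 0.20, Car13 in 7-9 between -1.97 and 0.94, Car15 in 4-6 between -0.68 and 0.75, Car13 in 4-6 between -0.37 and 0.30, Car2 in 1-3 between -0.04 and 0.59 and in 4-6 between -0.02 and 0.53, Car13 in 4-9 between -0.83 and 0.38 and over all libraries between -0.59 and 0.32 without covariates and between -0.31 and 0.49 with the set term, and Car5b in 7-9 between -0.06 and 3.25. Between untreated sets the changes of sign were also in uncalled values. In control 4-6 against control 1-3, Car12 ran from -0.20 (without control 5) to 1.43 as each library was left out. In control 7-9 against control 1-3, Car13 was -0.071 with quality-weighted voom and ran from -0.68 (without control 7) to 1.81. In control 7-9 against control 4-6, Car12 was -0.13 and Car15 -0.14 with quality-weighted voom, and Car12 was -0.02, -0.23 and -0.91 without control 4, 6 and 7, and at most 1.36. The causes were not tested. Of the other values of log2 fold change, 645 kept their direction and side of the threshold or moved by less than the spread, 63 moved by more, and between untreated sets 8 became called and 6 lost their call. The values of Car15 in control 1-3 (at most 3 counts) and of the 5 members with few or no reads are limited by those low counts.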
